A study of Mus musculus with 840 samples.

Results

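The 10 genes described here make up a smooth muscle contractile programme: *Acta2*, *Actg2*, *Myh11*, *Mylk*, *Cnn1*, *Tagln*, *Myl9*, *Oxtr*, *Lmod1* and *Tpm2*. They were chosen by name, and all 10 were found by their Ensembl identifiers among the 39154 genes of the count tables. Single cells of the mouse mammary gland had been index-sorted and sequenced with Smart-seq2, a full-length method without molecular identifiers, from mice carrying an inducible, active form of the Notch1 receptor (N1ICD) that is expressed together with nuclear GFP after Cre recombination. In SMACreERT2/N1ICD mice (SMACre), the promoter of *Acta2* drives the tamoxifen-dependent Cre, and in K5CreERT2/N1ICD mice (K5Cre) the Keratin 5 promoter does. All mice received tamoxifen at postnatal day 21, and cells were collected 1, 3, 4 or 6 weeks later. GFP+ cells expressed N1ICD, and GFP- cells of the same glands served as the comparison. Sorting used EpCAM and CD49f: basal (EpCAM low, CD49f high), intermediate (medium for both) and luminal (EpCAM high, CD49f low).

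Several features limit these groups as models. GFP+ cells of SMACre mice were selected by earlier activity of the promoter of one of the 10 genes, so high *Acta2* in their basal gate is partly set by the design. GFP- cells came from the same tamoxifen-treated mice. Each of the 8 plates held cells of its own 1 or 2 mice and was taken as the replicate, and p-values measure the spread between plates. The plates that hold both basal and intermediate GFP+ cells were SMACre in batches 1 and 2 (plates 1, 3 and 4) and K5Cre in batch 3 (plates G and L), so Cre line and sequencing batch cannot be told apart for that comparison.

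After filtering, 68.7% of 744 cells remained. They were 100 basal GFP+ cells, intermediate GFP+ cells (99 SMACre, and 63 and 61 on the 2 K5Cre plates), 120 luminal GFP+, 17 basal GFP-, 12 intermediate GFP- and 39 luminal GFP- cells. They held 103081 to 3363298 reads on genes, with medians of 402767, 397250.5 and 1499629.5 in batches 1, 2 and 3. The keratins of 2 sums on plate L stood apart from their gates. *Krt5*, a basal keratin, stood at 628 to 1203 CPM (reads scaled to the total on genes) in basal GFP+ sums of plates 1, 3, 4 and G, but at 1.12 CPM on plate L. The luminal GFP- sum of plate L held 441.7 CPM of *Krt5* and 803 CPM of *Krt14*, while the other luminal GFP- sums held at most 55.5 and 148.6 CPM. On that plate the basal GFP+ cells held 7135 CPM of a list of 8 sebaceous and lipid-synthesis genes, all of which had reads in the gate, against 171.9 to 247.3 CPM on the SMACre plates and 2191 CPM on plate G, and the intermediate GFP+ sum of plate L held 4341 CPM. In the study's supplementary list of sorted cells the intermediate and luminal gates of plates 1 to 4 are the other way round from the labels. The labels were used: intermediate GFP+ sums of these plates held 762 to 1828 CPM of *Krt5*, and the luminal GFP+ sums of plates 1, 3 and 4 at most 68.9 CPM.

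Basal cells of the mammary gland are myoepithelial: they wrap the ducts and alveoli and contract to eject milk. Their contraction uses the machinery of smooth muscle, in which phosphorylation of a myosin light chain lets smooth muscle myosin pull on actin filaments, and oxytocin released during suckling is the trigger. In smooth muscle the genes of this machinery are known targets of serum response factor (SRF), which binds CArG boxes in their promoters together with the coactivator myocardin. Luminal cells, which make the milk, lack this machinery. Notch signalling acts through the DNA-binding protein RBPJ, whose core motif is TGGGAA.

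Promoter sequence is shown for the members in which either motif was found outside annotated exons, because the data below concern these genes under forced Notch signalling. RefSeq promoters on GRCm38.p6 were at hand for 7 of the 10 genes. Both strands were searched in the 250 bases before the start site, with no overlap between the motifs. *Myl9* had a CArG box, which 1.47% of 32851 promoters hold. *Oxtr* had the RBPJ core on the opposite strand (TTCCCA), and *Acta2* had it at 27 to 22 bases before the RefSeq start, inside an annotated exon of a longer transcript. The RBPJ core occurs in 21.6% of these promoters. *Mylk*, *Cnn1*, *Lmod1* and *Tpm2* held neither motif in this window. The parts before any annotated exon are chr2:156775214-156775419 (plus strand) for *Myl9* and chr6:112489944-112490075 (minus strand) for *Oxtr*, written 5′ to 3′ with the motif in capitals.
*Myl9*: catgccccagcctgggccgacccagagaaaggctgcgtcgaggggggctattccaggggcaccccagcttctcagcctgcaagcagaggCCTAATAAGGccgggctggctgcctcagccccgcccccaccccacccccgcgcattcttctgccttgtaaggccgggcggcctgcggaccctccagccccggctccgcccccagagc
*Oxtr*: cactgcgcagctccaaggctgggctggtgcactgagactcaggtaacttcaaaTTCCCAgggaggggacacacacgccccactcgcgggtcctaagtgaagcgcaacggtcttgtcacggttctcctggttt

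In basal GFP+ cells the programme was led by *Acta2*, which encodes smooth muscle α-actin (chromosome 19, 34241090-34255590, minus strand, GRCm38). Its summed level was 3004, 2402 and 7999 CPM on SMACre plates 1, 3 and 4, and 506.1 and 325 CPM on K5Cre plates G and L. The SMACre and K5Cre values did not overlap. Per kilobase of exon, *Acta2* had the highest median of the 10 genes over the 5 basal GFP+ plates, at 1094 RPKM, followed by *Myl9* at 405 RPKM and *Tpm2* at 227.6 RPKM. *Lmod1* was the lowest at 12.4 RPKM, and these ranges overlapped between neighbours in the order. *Actg2*, the enteric smooth muscle γ-actin (chromosome 6, 83512905-83536265), was far rarer, at 97.4, 10.3 and 501 CPM on plates 1, 3 and 4, 0 on plate G and 45.1 CPM on plate L. *Acta2* and *Actg2* are close paralogs, and reads from stretches they share may have been split or lost in counting.

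The myosin motor followed the actin. *Myh11*, the smooth muscle myosin heavy chain (chromosome 16, 14194535-14291372), stood at 581, 609 and 721.3 CPM in the basal GFP+ sums of plates 1, 3 and 4, against 3.52 and 3.66 CPM on plates G and L. *Myl9*, the regulatory light chain that is phosphorylated to start contraction (chromosome 2, 156775420-156781658), stood at 471, 666 and 1242 CPM on the SMACre plates, and at 157.1 and 25.6 CPM on the K5Cre plates. *Mylk*, the kinase that phosphorylates it (chromosome 16, 34745210-35002420), ranged from 317 to 330 CPM on plates 1, 3 and 4 and was 52.5 and 101.03 CPM on plates G and L. For all 3 genes the basal GFP+ sums of the 2 Cre lines did not overlap. The share of all genes for which this holds was not counted, and Cre line and batch cannot be told apart here.

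Actin-binding members had basal GFP+ sums that were higher on the SMACre plates, except that *Tagln* overlapped between the lines. Here too the share of all genes with such a split was not counted. *Cnn1*, calponin, which restrains actin-activated myosin ATPase (chromosome 9, 22099216-22109630), was at 335, 547 and 1170 CPM on plates 1, 3 and 4 and at 22.1 and 3.96 CPM on plates G and L. *Tpm2*, β-tropomyosin, which lies along the actin filament (chromosome 4, 43514711-43523765), was at 662, 856 and 1540 CPM against 619 and 163.2 CPM. *Tagln*, transgelin (chromosome 9, 45929619-45936058), was at 56.3 to 159.1 CPM on the SMACre plates, 71.7 CPM on plate G and 1.73 CPM on plate L. Of its exon length, 67.9% overlaps genes on the opposite strand, and these libraries do not mark strand, so its counts are uncertain. *Lmod1*, leiomodin, which nucleates actin filaments (chromosome 1, 135324807-135368065), was at 79.9, 83.6 and 49.1 CPM and then at 21.98 and 1.02 CPM. *Oxtr*, the oxytocin receptor (chromosome 6, 112473683-112489943), was at 605, 493.4 and 207.5 CPM on plates 1, 3 and 4, and at 75.2 and 9.45 CPM on plates G and L. The plot of levels by gate shows all of these sums.

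**Figure D1:**
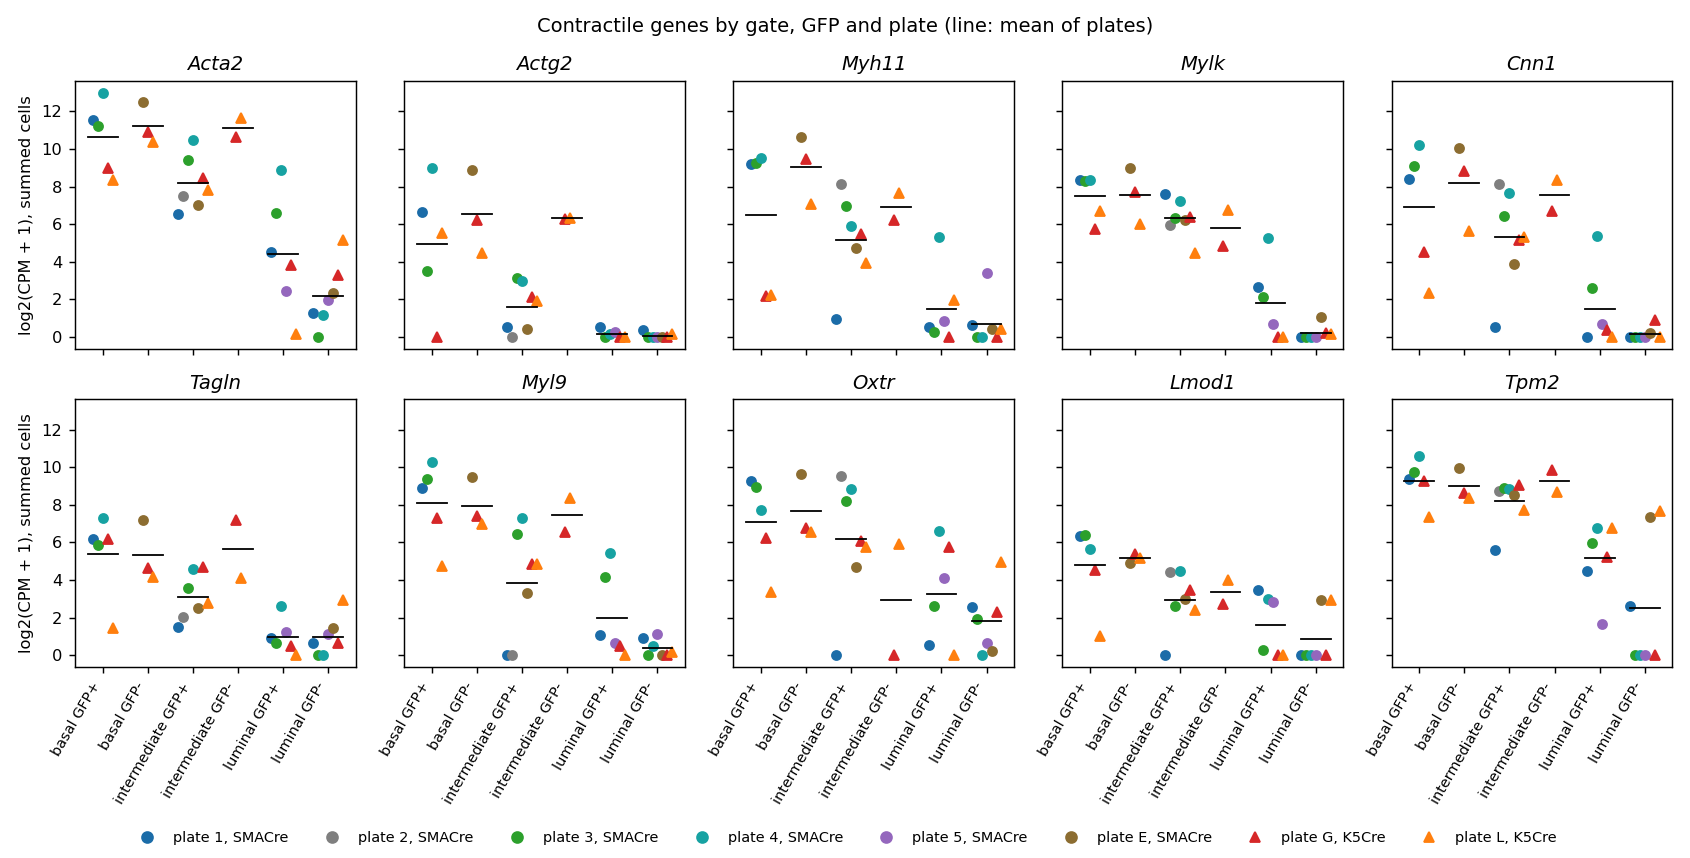
Level of each of the 10 genes in the summed cells of each gate, GFP state and plate, as log2(CPM + 1); each point is 1 plate with at least 3 kept cells (circles SMACre, triangles K5Cre), and lines are means over plates. *Acta2* reaches 7999 CPM in the basal GFP+ gate, its SMACre basal GFP+ plates lie above both K5Cre ones, and the luminal GFP+ mean lies below the basal and intermediate GFP+ means for each gene.

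The question asked next was which of these genes are lost first between the basal and the intermediate gate. Differences in level were taken within a plate, so that Cre line, chase, batch and the plate's 1 or 2 mice were shared. Shares of cells pooled over plates and means over unlike sets of plates, given further below, are not within-plate comparisons. *Acta2* was lower in the intermediate GFP+ sum than in the basal GFP+ sum on 5 of 5 plates, and it was the only member for which that held. The share of all 12348 genes tested that were lower on every plate was 2.62%. Intermediate levels of *Acta2* were 90.7, 675 and 1444 CPM on plates 1, 3 and 4, and 347 and 224.9 CPM on plates G and L. Plates 2 and E, which had too few or no basal GFP+ cells, gave 177.9 and 127.8 CPM in the intermediate gate. The fitted log2 difference of *Acta2* was -1.98 with an SE of 0.65. edgeR's quasi-likelihood test with the plate as a block gave an unadjusted p of 0.015 and a Benjamini-Hochberg adjusted p of 1 (n = 5 plates).

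None of the 10 members passed the adjusted threshold in this comparison, as no gene did (0 of 12348, 0%). An unadjusted p under 0.05 was found for 1.48% of genes, 62 of them lower in the intermediate gate, and DESeq2 with the same block called 60 genes, none of them a member. Counts were simulated with the residual spread fitted for each gene after the plate block, without differences in level between plates. On these, edgeR recovered 23.4% of genes given a log2 change of 3 in this comparison, so changes of this size could be missed. *Myl9* and *Mylk* were the other members with an unadjusted p under 0.05. Their log2 differences were -3.01 (SE 1.197) and -1.12 (SE 0.47), each lower on 4 of 5 plates. All 10 fitted differences were below 0, with a median of -1.84, while the median over all genes was -0.06.

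The direction depended on the plates. On SMACre plates 1, 3 and 4, 10, 10 and 9 members were lower in the intermediate gate, where 68.9%, 50.6% and 45.9% of all genes tested were. On K5Cre plate G 6 members were lower, and on plate L 3, where 37.6% and 45.6% of all genes were. *Oxtr* was the exception on plate 4, with 207.5 CPM in the basal and 451 CPM in the intermediate sum. The median log2(CPM + 1) difference over the members was -6.21, -2.13 and -2.50 on plates 1, 3 and 4, and -0.18 and 0.84 on plates G and L. The intermediate gate of plate 1 had only 4 kept cells. A list of 4 endothelial genes held 1095 CPM there and 515.8 CPM in the basal sum of the same plate, against at most 7.72 CPM in both gates of plates 3, 4, G and L, and the part of these genes in the result was not tested.

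*Myh11* and *Cnn1* differed most between the Cre lines. *Myh11* was at 0.92, 125.5 and 59.5 CPM in the intermediate sums of plates 1, 3 and 4, each below its basal sum, but at 43.6 and 14.3 CPM on plates G and L, each above. *Cnn1* was at 0.46, 86.6 and 201.95 CPM on plates 1, 3 and 4, and at 34.9 and 38.3 CPM on plates G and L, with the same split of directions. Fitted on the SMACre plates alone, the log2 difference was -4.39 (SE 1.33) for *Myh11* and -3.98 (SE 1.29) for *Cnn1*. On the K5Cre plates alone it was 2.79 (SE 1.36) and 1.94 (SE 1.10). An interaction term, added after these values were seen, gave a difference between the lines of 7.20 (SE 1.85) for *Myh11*, with an unadjusted edgeR p of 0.0046, and 5.94 (SE 1.92) for *Cnn1*, with an unadjusted edgeR p of 0.015. Neither passed correction over 12348 genes, for which the edgeR adjusted p was 0.994 in both, and 0 genes did, while 411 had an unadjusted p under 0.05.

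The levels of *Myh11* in the basal GFP+ sums of the 2 lines did not overlap, and those in the intermediate sums did. How many of all genes have this pattern was not counted. Intermediate GFP+ sums of *Myh11* spanned 0.92 to 277.99 CPM over the 5 SMACre plates, a range that holds both K5Cre values. The basal GFP+ gates of plates G and L had 5 and 6 kept cells, and a single cell gave 77.8% and 70.8% of their *Acta2* reads. These basal gates also held the high lipid-synthesis sums given above, as did the intermediate GFP+ gate of plate L (4341 CPM). The part of cell number, of these genes and of batch in the contrast was not tested.

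Ranked by the mean within-plate difference in log2(CPM + 1), *Myl9* came first, at -3.43 (SD 3.30, n = 5 plates). *Actg2* followed at -2.79 (SD 3.59) and *Lmod1* at -2.18 (SD 2.95). *Acta2* was at -2.08 (SD 1.85), *Tagln* at -1.97 (SD 2.18), *Cnn1* at -1.88 (SD 4.08), *Myh11* at -1.82 (SD 4.56) and *Oxtr* at -1.33 (SD 4.59). *Tpm2* and *Mylk* came last at -1.24 (SD 1.61) and -1.09 (SD 1.14). The gap between any 2 neighbours was smaller than their SDs, and so was the gap between *Myl9* and *Mylk* when set against the SD of *Myl9*. These are SDs of single members, while members share plates, so they set no order over all 10. Within each of plates 1, 3, 4, G and L, *Myl9* had a lower difference than *Tpm2*. *Myl9* stood at -8.88, -2.92, -2.97, -2.46 and 0.09, and *Tpm2* at -3.75, -0.83, -1.77, -0.20 and 0.35. *Acta2* also lay below *Tpm2* on each plate, but *Myl9* lay above *Mylk* (-2.23) on plate L. These pairs were picked after the values were seen and were not tested. Plate 1 weighed most: without it the means were -2.06 for *Myl9*, -1.97 for *Actg2*, -1.14 for *Lmod1*, -1.34 for *Acta2*, -1.29 for *Tagln*, -0.39 for *Cnn1*, -0.21 for *Myh11*, 0.65 for *Oxtr*, -0.61 for *Tpm2* and -1.18 for *Mylk*. Without plate G, *Actg2* (-4.02) came before *Myl9* (-3.67). The place of *Actg2* rests on few cells. A single basal GFP+ cell held 58.3%, 63%, 61.3% and 100% of its reads on plates 1, 3, 4 and L. With log2 values averaged over cells instead of sums, *Myl9* (-3.48) stayed first and *Mylk* (-1.04) last, while *Actg2* was at -1.15.

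On the 3 SMACre plates the order placed *Myl9* (-4.92, SD 3.43), *Myh11* (-4.70, SD 3.14) and *Cnn1* (-4.34, SD 3.04) first, and *Oxtr* (-2.95, SD 5.53), *Tpm2* (-2.12, SD 1.49) and *Mylk* (-1.29, SD 0.63) last. Different members led on single plates. The largest difference was that of *Oxtr* on plate 1, *Lmod1* on plate 3, *Actg2* on plates 4 and L, and *Myl9* on plate G. For *Actg2* a single cell held 61.3% and 100% of the basal GFP+ reads on plates 4 and L. Where the intermediate gate stood between basal (0) and luminal (1) on the log2(CPM + 1) scale also varied, with medians over plates of 0.67 for *Actg2*, 0.56 for *Myl9* and 0.55 for *Myh11*, 0.40 for *Acta2*, and 0.34 and 0.32 for *Tpm2* and *Mylk*. *Oxtr* had a median of -0.29 over 4 plates, 2 of them above 0 and 2 below.

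**Figure D2:**
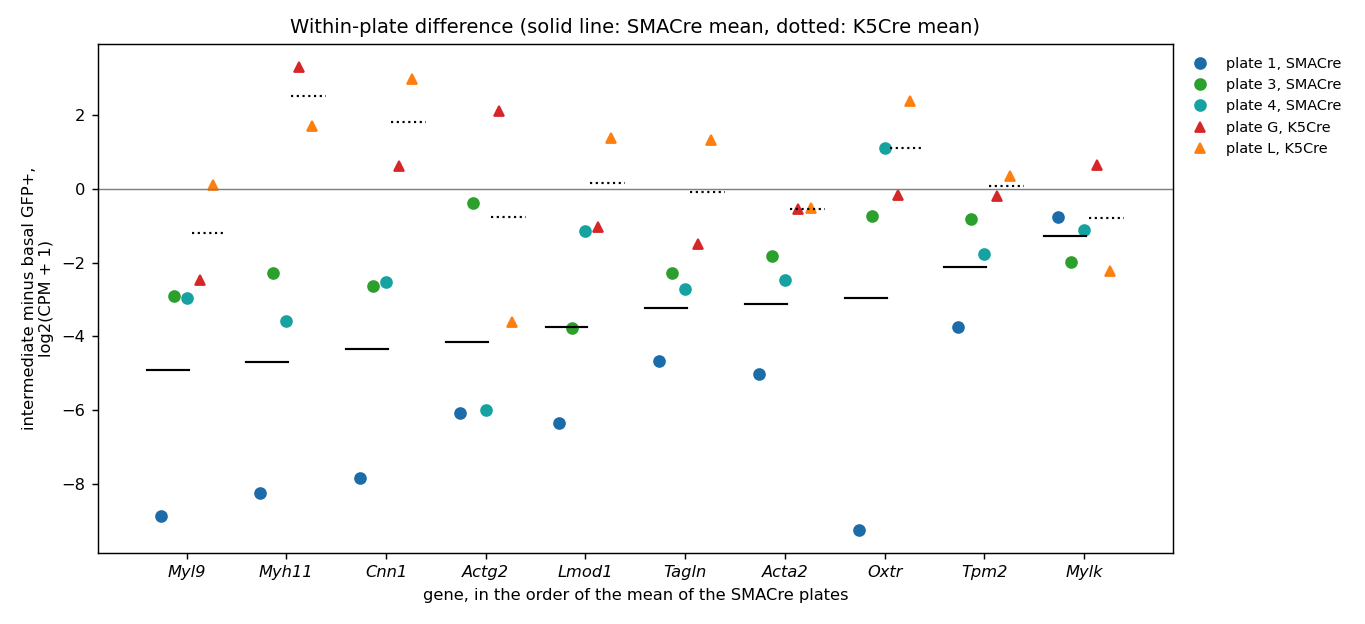
Intermediate minus basal GFP+ difference in log2(CPM + 1) for each gene, with 1 point per plate (circles SMACre, triangles K5Cre), the SMACre mean as a solid line and the K5Cre mean as a dotted line; values below 0 are lower in the intermediate gate. The SMACre plates lie below 0 except for *Oxtr* on plate 4, and the K5Cre plates lie on both sides of 0.

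Levels of a sum mix cells that hold a transcript with cells that do not, so detection was counted after thinning each cell to 100000 reads on genes. *Tpm2* was detected in 91% of the basal and of the intermediate GFP+ cells. *Acta2* was detected in 92% of basal GFP+ cells (95% exact interval 84.8% to 96.5%) and in 59.2% of intermediate GFP+ cells (52.4% to 65.7%). *Mylk* was at 85% and 46.2%, *Oxtr* at 77% and 36.8%, and *Myl9* at 77% and 27.8%. *Tagln* (74% and 27.8%), *Myh11* (69% and 26.5%), *Cnn1* (67% and 30.9%), *Lmod1* (51% and 19.7%) and *Actg2* (22% and 4.48%) were lower in the pooled intermediate cells too. These intervals are Clopper-Pearson intervals, cover counting error only and pool cells over plates.

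Luminal GFP- cells, which should lack the machinery, set the background. *Tpm2* was detected in 23.1% of these 39 cells, *Acta2*, *Oxtr* and *Tagln* in 12.8% each, and the other members in at most 7.69%. *Myl9* and *Actg2* were found in 0 of 39 cells, which allows a share of up to 7.69% (a limit of 3 cells, here and for the other counts of 0). Each member was detected in a larger share of intermediate GFP+ than of luminal GFP- cells, but the 4.48% of *Actg2* lies under the limit that 0 of 39 cells allows. The median depth before thinning was 496102.5 reads in basal GFP+, 1391198 in intermediate GFP+, 361346 in luminal GFP+ and 632006 in luminal GFP- cells. Without thinning, detection averaged over the 10 genes was 75.6% in basal, 45.3% in intermediate and 19.5% in luminal GFP+ cells, against 70.5%, 37.04% and 11.7% with it.

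Within plates, *Myl9* had the largest mean loss of detection from the basal to the intermediate gate. Its share of cells was 74% and 0 on plate 1, 85.7% and 61.5% on plate 3, 81.2% and 57.9% on plate 4, 80% and 28.6% on plate G, and 50.0% and 27.9% on plate L. The mean difference was -39.0 percentage points (SD 23.1), and it was lower on 5 of 5 plates, as was that of *Acta2* (-16.99 points, SD 15.9). *Mylk* (-7.00 points, SD 10.3) and *Tpm2* (-8.50 points, SD 17.04) had the smallest mean differences, and *Tagln* (-30.3 points, SD 22.2) came second to *Myl9*. *Oxtr* (-20.2 points, SD 33.9) was lower on 3 of 5 plates, and higher by 6.59 and 1.97 points on plates 3 and 4. In levels and in detection alike, *Myl9* thus had the first place and *Mylk* the last in mean difference, with SDs that overlap. On the K5Cre plates alone the mean difference was -36.8 points for *Myl9* and 14.9 points for *Myh11*.

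**Figure D3:**
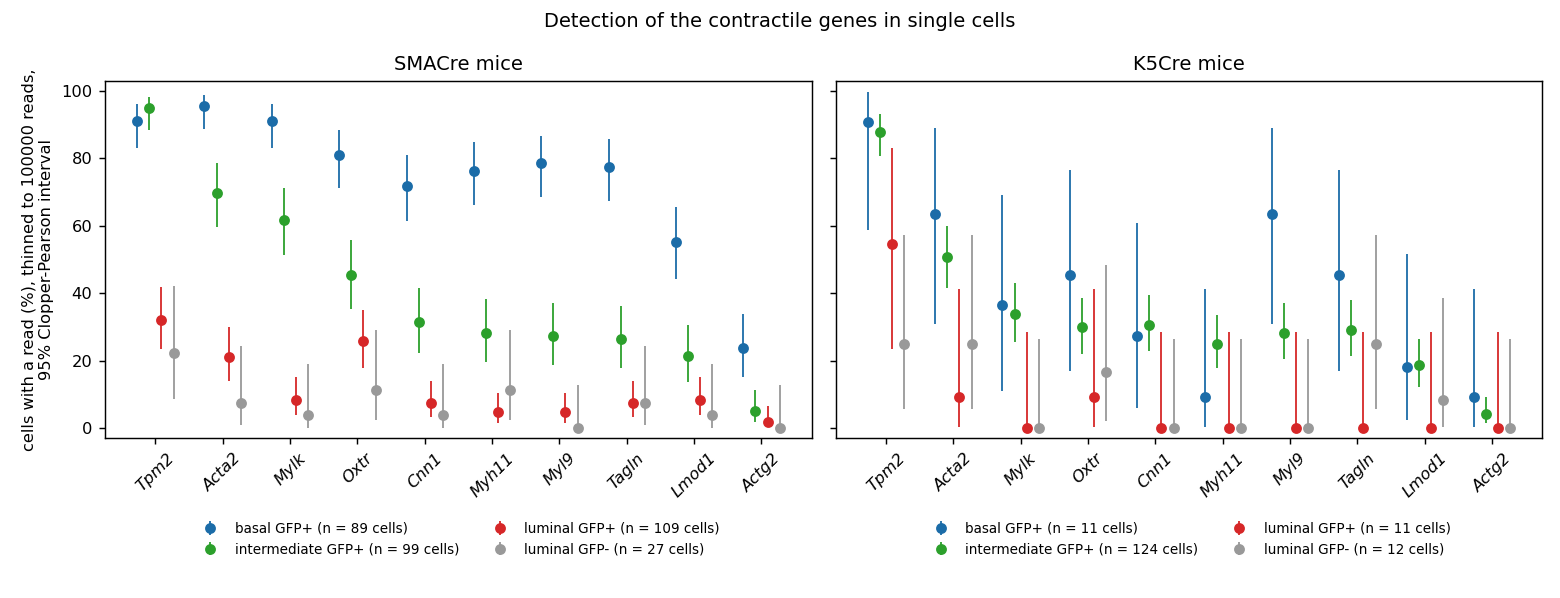
Percent of cells in which each gene was detected after thinning to 100000 reads, in SMACre mice (left) and K5Cre mice (right), by gate for GFP+ cells and for luminal GFP- cells; points are shares and bars are 95% Clopper-Pearson intervals over cells. In SMACre mice *Tpm2* was detected in 91% of basal and 94.9% of intermediate cells and *Acta2* in 95.5% and 69.7%, while the K5Cre basal intervals are wide (11 cells).

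Counted per cell, the programme was mostly complete in the basal gate and partial in the intermediate gate. Basal GFP+ cells held on average 6.21 of the 10 genes (SD 2.05 over 5 plates), intermediate GFP+ cells 4.24 (SD 1.46 over 7 plates) and luminal GFP+ cells 1.12 (SD 0.35 over 6 plates). Basal GFP- cells held 6.79 (SD 1.97, n = 3 plates) and luminal GFP- cells 0.80 (SD 0.72, n = 7 plates). The plate means of the basal and intermediate GFP+ gates overlapped (3.00 to 7.81 against 2.705 to 6.05), and those of the luminal GFP+ gate (0.60 to 1.5) lay below both. At least 8 members were detected in 58% of basal, 7.62% of intermediate and 0.83% of luminal GFP+ cells. This share was 65.2% in SMACre basal GFP+ cells and 0 of 11 in K5Cre basal GFP+ cells, which allows up to 27.3%, while 5 of 11 K5Cre basal GFP- cells reached it.

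Cells with 3 to 7 members made up 56.1% of intermediate GFP+ cells and 33% of basal GFP+ cells (33 cells). Among these partial intermediate cells, *Tpm2* was detected in 97.6%, *Acta2* in 84.8% and *Mylk* in 64%. *Oxtr* (48.8%) and *Cnn1* (39.2%) came next, and *Myl9*, *Tagln* and *Myh11* were detected in 34.4%, 33.6% and 32.8%. *Lmod1* and *Actg2* were the rarest, at 24.8% and 3.20%. *Tpm2*, *Acta2* and *Mylk* also led among the 33 partial basal cells, with 90.9%, 87.9% and 75.8%, and among the partial intermediate cells of each Cre line taken alone. At a fixed depth a highly expressed gene is more easily detected, which bears on such an order. The partial cells were also chosen by how many members they held.

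**Figure D4:**
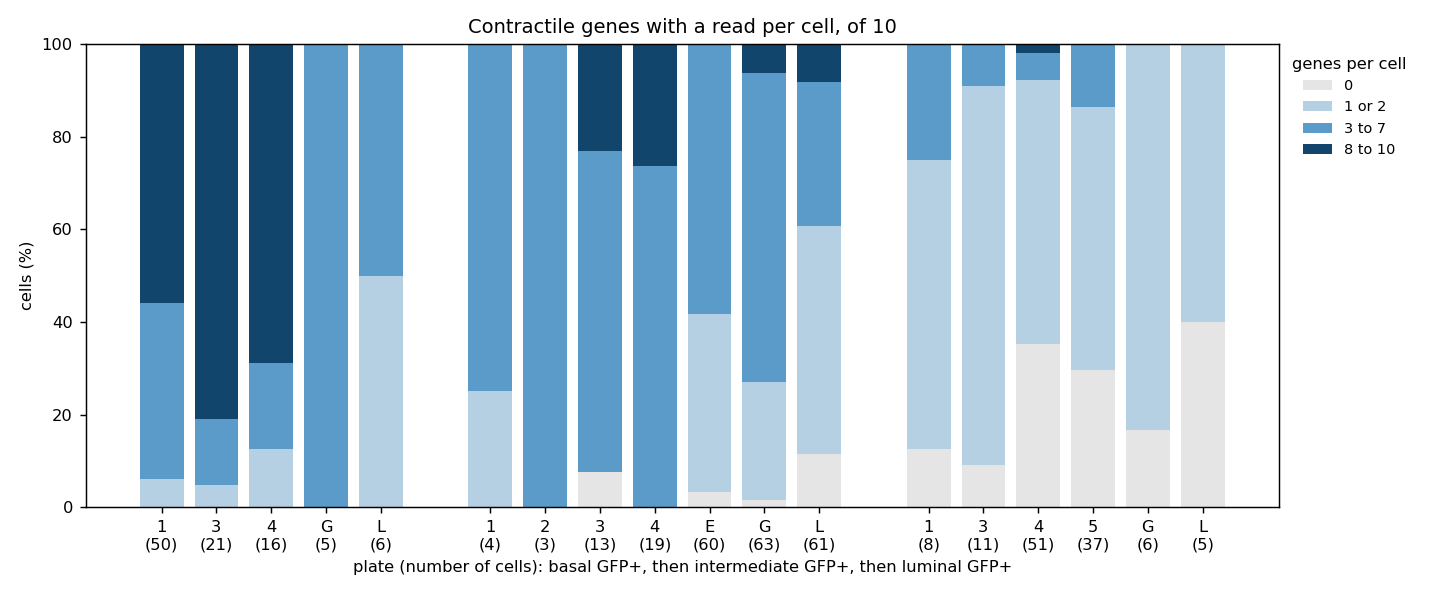
Percent of GFP+ cells with 0, 1 or 2, 3 to 7, or 8 to 10 of the genes detected after thinning, with 1 bar per plate and the number of cells in brackets, for the basal, intermediate and luminal gates in turn. Basal bars of plates 1, 3 and 4 hold 56%, 80.95% and 68.75% of cells with 8 to 10 genes, those of plates G and L hold none, and luminal bars are mostly cells with 0 to 2 genes.

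In luminal GFP+ cells most of the programme was nearly absent, but *Tpm2*, *Oxtr* and *Acta2* were detected in 34.2%, 24.2% and 20% of thinned cells. The luminal GFP- background was 23.1%, 12.8% and 12.8%, and the exact intervals of the 2 groups overlapped for each gene. On plate L *Tpm2* stood at 110 CPM in the luminal and 163.2 CPM in the basal GFP+ sum. On plate G *Oxtr* stood at 53.3 and 75.2 CPM. Compared with the basal GFP+ cells of the same 5 plates, 4 members were called lower by edgeR with the plate as a block, where 0.562% of 12091 genes were called in either direction. These were *Tagln* (log2 difference -6.40, SE 0.66, edgeR adjusted p 0.021), *Myl9* (-7.03, SE 0.83, edgeR adjusted p 0.027), *Cnn1* (-7.00, SE 0.94, edgeR adjusted p 0.031) and *Acta2* (-6.07, SE 0.98, edgeR adjusted p 0.048). *Mylk* (-6.76, SE 1.16) and *Tpm2* (-3.70, SE 0.66) missed the threshold, with edgeR adjusted p of 0.057 and 0.058. All 9 members tested were lower on every plate, as were 6.42% of all genes, and the smallest difference was that of *Tpm2*. *Actg2* did not pass the filter on low counts. The 4 calls rest on few plates: leaving out plate 3 or plate 4 ended all of them, without plate 1 only *Cnn1*, without plate G only *Tagln*, and without plate L only *Acta2*, *Myl9* and *Tagln* were called. On plate 1 the luminal GFP+ sum, of 8 cells, held 32045 CPM of a list of 7 salivary gland genes, against 29.97 CPM in its basal GFP+ sum and at most 471 CPM in the luminal GFP+ sums of the other plates. The part of these genes was not tested beyond the fit without plate 1. In the fits with 1 plate left out, edgeR called 5 to 44 genes in all, and the lost calls had edgeR adjusted p of 0.051 to 0.172.

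On several plates most of the residual luminal signal of *Acta2* came from single cells. *Acta2* was at 21.6, 96.97, 471 and 4.42 CPM in the luminal GFP+ sums of plates 1, 3, 4 and 5, and at 12.9 and 0.11 CPM on plates G and L. On plate 4, 1 of 51 cells held 94.8% of the *Acta2* reads, and the same cell held 99.7% of the *Myl9*, 95.1% of the *Cnn1* and 82.03% of the *Myh11* reads. On plates 1, 3 and G a single cell held 67.4%, 99.6% and 98.9% of the *Acta2* reads. Plate 5 differed: its 45 *Acta2* reads came from 25 of 37 cells, with 8.89% in the top cell. *Oxtr* was spread more widely on plate 4, with reads in 18 of 51 cells and 23.3% in the top cell, as was *Tpm2*, with reads in 20 cells and 39.2% in the top cell. *Oxtr* was detected in 24.2% of thinned luminal GFP+ cells and in 12.8% of luminal GFP- cells.

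Luminal GFP+ cells were also compared with the other groups. Against intermediate GFP+ cells, edgeR called 0 of 11979 genes (0%), while 822 had an unadjusted p under 0.05 and DESeq2 called 799. All 9 members tested had lower fitted values in the luminal gate, and 6 of them were lower on every plate, as were 4.4% of all genes. *Tpm2* differed by -2.31 (SE 0.50), *Mylk* by -5.82 (SE 1.38), *Cnn1* by -5.48 (SE 1.36) and *Acta2* by -3.69 (SE 1.14) on the log2 scale, with edgeR adjusted p of 0.236, 0.274, 0.300 and 0.477. Against luminal GFP- cells of the same 6 plates only *Acta2*, *Oxtr* and *Tpm2* were abundant enough to test, and edgeR called 0 of 10929 genes (0%), with 436 at an unadjusted p under 0.05 and 2.14% called by DESeq2. *Tpm2* was higher in GFP+ cells by 5.53 (SE 1.96, 5 of 6 plates), and the share of all genes higher on as many plates was not counted. Its GFP- sums held 0 reads on plates 3, 4, 5 and G. On plate L *Tpm2* stood at 204.1 CPM in GFP- and 110 CPM in GFP+ cells. On plate E, outside this comparison, it was detected in 5 of 5 luminal GFP- cells. *Acta2* and *Oxtr* differed by 2.72 (SE 2.16) and 1.77 (SE 2.73), and the edgeR adjusted p was 1 for all 3. On the K5Cre plates alone *Acta2* and *Oxtr* took the other sign, at -3.56 and -2.16.

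The GFP state within the basal gate could be compared on K5Cre plates G and L. Basal GFP- cells held more *Acta2* (1898 and 1308 CPM) than basal GFP+ cells (506.1 and 325 CPM). For *Myh11* the values were 701.3 and 135.1 CPM against 3.52 and 3.66 CPM, and for *Cnn1* 454 and 49.6 CPM against 22.1 and 3.96 CPM. The fitted log2 differences were -6.33 (SE 0.91) for *Myh11*, -3.93 (SE 0.63) for *Cnn1* and -1.88 (SE 0.51) for *Acta2*, with unadjusted edgeR p of 0.00055, 0.00094 and 0.012. By unadjusted p, *Myh11* stood in place 2 and *Cnn1* in place 4 among 12423 genes, but edgeR's adjusted p was 1 and 0 genes were called (0%), against 2.19% with an unadjusted p under 0.05. DESeq2 called 1.38% of genes, among them these 3. Of the members, 6 of 10 were lower in GFP+ cells on both plates, as were 26.6% of all genes. The groups hold 5 or 6 cells each, and the lipid-synthesis list stood at 2191 and 7135 CPM in the GFP+ sums and at 1428 and 2017 CPM in the GFP- sums of plates G and L. The basal GFP+ sum of plate L also held only 1.12 CPM of *Krt5*, while basal GFP- sums held at least 433 CPM. A single cell gave 43.8% and 60.7% of the basal GFP- *Myh11* reads on plates G and L. The part of the lipid-synthesis list, of the low *Krt5* and of single cells in the difference was not tested.

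Other GFP- groups were measured without a test. Basal GFP- cells of SMACre plate E held 5783 CPM of *Acta2*, 1565 CPM of *Myh11*, 1058 CPM of *Cnn1* and 795 CPM of *Oxtr*. The values of *Acta2* and *Cnn1* lay within the range of the SMACre basal GFP+ sums, and those of *Myh11* and *Oxtr* lay above it. Plate E was in batch 3 and those GFP+ sums were in batches 1 and 2. This comparison therefore crosses batch, depth and read layout, and rests on 6 GFP- cells. Intermediate GFP- cells of plates G and L held 1599 and 3155 CPM of *Acta2*, against 347 and 224.9 CPM in the intermediate GFP+ sums of the same plates. For *Tpm2* these values were 934 and 418 CPM against 537 and 208.01 CPM. Each intermediate GFP- sum rests on 6 cells, and 56.7% and 48.1% of its *Acta2* reads came from 1 cell. On plate L this sum also held 2001 CPM of a list of 4 immune genes, against 2.42 CPM in the intermediate GFP+ sum, and their part was not tested.

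Chase time was followed in SMACre mice with 1 plate at most times, and values at 3 weeks pool the reads of several plates. Basal GFP+ *Acta2* was 3004 CPM at 1 week, 2554 CPM at 3 weeks and 7999 CPM at 4 weeks. Intermediate GFP+ *Acta2* was 90.7, 163.1 and 1444 CPM at these times. The 3-week plates 2, 3 and E, of batches 1, 2 and 3, had 177.9, 675 and 127.8 CPM. Plates of 1 time thus differed widely, and their *Oxtr* ran from 24.7 to 737.7 CPM. Luminal GFP+ *Acta2* was 21.6, 84.3, 471 and 4.42 CPM at 1, 3, 4 and 6 weeks. The 4-week luminal value is the one carried by a single cell. *Tpm2* went through 48.1, 381 and 451 CPM in the intermediate gate and through 21.1, 55.7, 109.2 and 2.16 CPM in the luminal gate, and *Oxtr* through 0, 51.8 and 451 CPM and 0.45, 4.51, 96.3 and 16.2 CPM. *Acta2* and *Tpm2* were lowest in the luminal cells at 6 weeks, all of plate 5, and *Oxtr* was not. Plate L is named with 2 different chase times in the deposited annotation, and the 3-week entry was used.

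Of the factors known to drive these genes, *Myocd*, which encodes myocardin, was found mainly in basal cells of SMACre mice. Its basal GFP+ sums were 10.98, 10.51 and 18.7 CPM on plates 1, 3 and 4, 0.44 CPM on plate G and 0 on plate L. The 509 reads on SMACre plates came from 4 of 89 cells. Intermediate GFP+ cells held 0 reads in 99 SMACre cells, which allows a share of cells with a read of up to 3.03%, and 6 reads in the K5Cre cells, and luminal cells held none. *Myocd* was too low to test. *Srf* differed between the intermediate and basal gates by -1.10 (SE 0.66) on the log2 scale, *Mrtfa* by -0.55 (SE 0.58) and *Mrtfb*, its paralog, by -0.29 (SE 0.52). *Trp63*, the basal identity factor p63, differed by -0.65 (SE 0.40) here and by -6.98 (SE 1.21, edgeR adjusted p 0.057) between the luminal and basal gates.

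Of 37 further genes of the contractile and regulatory pathway, 34 were tested between the intermediate and basal gates and none was called by edgeR, 0 higher and 0 lower, with a median log2 difference of -0.33. *Flna*, an actin crosslinker (-0.81, SE 0.25), and *Cald1*, caldesmon, another brake on actomyosin (-0.91, SE 0.38), had an unadjusted p under 0.05. They were named after their values were seen. Between the luminal and basal gates 32 were tested and none was called, with 7 lower and 1 higher at an unadjusted p under 0.05 and a median of -0.56, against -6.40 for the 9 members tested. Between the luminal and intermediate gates none of 31 was called, in luminal GFP+ against GFP- cells none of 28 and in the K5Cre basal comparison none of 33.

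Non-muscle relatives of the members offered a comparison within the same gene families. Of 12, 11 were tested and none was called in any of the 5 comparisons. Between the intermediate and basal gates their log2 differences had a median of 0.11 and ran from -0.13 for *Myh9* and *Cnn2* to 0.57 for *Myh10*. *Actb* was at 0.12, *Actg1* at -0.06, *Myl12a* at -0.04, *Myl12b* at 0.11, *Tpm3* at 0.25, *Tpm4* at 0.17, *Cnn3* at 0.05 and *Tagln2* at 0.26. Between the luminal and basal gates *Cnn2* had the lowest value, at -1.69 (SE 0.52, edgeR adjusted p 0.235). *Actg1* showed how far levels can depend on the batch: it was at 12.8 to 166.4 CPM in the 15 sums of batches 1 and 2, sequenced with single-end reads, and at 540 to 2831 CPM in the 15 sums of batch 3, sequenced with paired-end reads. Levels of genes with near-identical copies, *Acta2* and *Actg2* among them, may not be comparable between these batches, and differences within a plate do not cross them.

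Keratins and *Epcam* were examined as comparators. Between the intermediate and basal gates *Krt14*, a basal keratin, differed by 0.0014 (SE 0.47) and *Krt5* by 1.15 (SE 1.02), a fit that includes the low basal sum of plate L, while the luminal *Krt18* differed by 1.29 (SE 0.36) and *Epcam* by 0.75 (SE 0.24), both higher in the intermediate gate on 5 of 5 plates. *Krt8* was higher by 0.60 (SE 0.38). The edgeR adjusted p was 1 for each. Between the luminal and basal gates *Krt14* fell by 5.20 on the log2 scale (SE 0.83, edgeR adjusted p 0.047), *Krt8* rose by 3.25 (SE 0.40, edgeR adjusted p 0.027), *Krt18* rose by 4.08 (SE 0.59, edgeR adjusted p 0.035) and *Epcam* rose by 1.90 (SE 0.28, edgeR adjusted p 0.035). The sort used the EpCAM protein. *Krt5* differed by -6.97 (SE 1.59, edgeR adjusted p 0.123).

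Markers of other cells that carry smooth muscle genes were measured as well. A list of 8 pericyte and vascular smooth muscle genes summed to 1.73 to 190.6 CPM in basal GFP+, 0.46 to 50.95 CPM in intermediate GFP+ and 0 to 15.3 CPM in luminal GFP+ sums. In the basal GFP+ gate 7 of the 8 had reads, and *Kcnj8* was at 0. Within plates it went from 190.6 to 0.46, 47.2 to 6.43 and 92.9 to 9.08 CPM between the basal and intermediate GFP+ sums of SMACre plates 1, 3 and 4. On K5Cre plates G and L it went from 26.7 to 50.95 and from 1.73 to 22.1 CPM. It was thus lower in the intermediate gate on the SMACre plates and higher on the K5Cre plates, as *Myh11* and *Cnn1* were, and its part in their values was not tested.

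Across the 30 plate, gate and GFP sums the members moved together, with Pearson r of log2(CPM + 1) from 0.48 for *Actg2* with *Oxtr* to 0.95 for *Myh11* with *Cnn1*, and a median of 0.78 over 45 pairs. The sums share plates and depth, so these values are descriptions. The genes outside the members whose profile was most like the mean of the members, among 16509 genes, were *Bgn* (r = 0.94), *Col14a1* (0.93), *Slc1a3* (0.92), *Tenm2* (0.91), *Slit3* (0.91), *Sobp* (0.91), *Klhl29* (0.91), *Igfbp3* (0.90), *Hmcn1* (0.90) and *Rcn3* (0.89). *Bgn*, *Col14a1* and *Hmcn1* encode extracellular matrix proteins, and *Slit3* a guidance ligand. *Bgn* had medians of 341, 158.6 and 0.46 CPM in basal, intermediate and luminal GFP+ sums, and *Igfbp3*, an IGF-binding protein, 756, 725 and 0.49 CPM. These medians are over all plates with a sum, 5 basal, 7 intermediate and 6 luminal, and are not within-plate values.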

How the data were processed

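The files hold read counts per gene that the authors made from Smart-seq2 libraries of single mouse mammary cells. Per the labels, reads were trimmed with Trim Galore 0.6.5, aligned to GRCm38 with STAR 2.7.7a and counted with HTSeq 0.13.5. The deposited counts are not normalized. Libraries do not mark strand, alignments counted as not unique are 0 in every cell, and 3.05% of reads on genes were ambiguous. Spike-in and summary entries were not counted as genes, and spike-ins took 8.31%, 6.64% and 0.214% of the reads in batches 1, 2 and 3. Of 39154 gene identifiers, 37893 matched a symbol.

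The repeat run of plate 5 (96 of 840 cells) was left out. Filters followed the study's methods: fewer than 10% of reads mitochondrial, more than 1400 genes and 100000 reads on genes, 2 or more reads of *Epcam* and no more than 1 of *Dcpp1*, a salivary gland gene. Cells were sorted singly and no doublet caller was run. Reads were summed per gate, GFP state and plate where at least 3 cells were kept. CPM refers to reads on genes, and RPKM divides CPM by exon length in kilobases. Sums were tested with edgeR 4.0.16 in R 4.3.3 (default filter on low counts, TMM, quasi-likelihood test), with the plate as a block and a Benjamini-Hochberg adjusted p of 0.05 over all genes. Same-plate sums come from the same 1 or 2 mice, which is where the pairing comes from. For detection, cells were thinned once to 100000 reads with pandas 2.3.3 and numpy 2.4.6, and the exact 95% intervals cover counting error only.

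The members, gene lists and tests were chosen with earlier results of these data known. The text names all members, listed genes with an adjusted p under 0.05 and the listed factors, all tested paralogs, 5 comparators and the 10 genes most like the members. Alternatives were DESeq2 1.42.0, other scalings, no filter on low counts, other cell filters, thinned sums, no block, batches alone, other units and leaving out each plate. Simulated counts had a log2 change of 3 and the residual spread fitted for each gene after the plate block, without differences in level between plates. On these, edgeR recovered 43 of 184 changed genes with 0 false calls for the intermediate against basal comparison. For luminal against basal it recovered 50 of 176 with 1 false call. DESeq2 recovered 129 and 125, with 237 and 184 false calls.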

Additional observations from a re-analysis of the deposited data

Results flagged for a closer look

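Groups of 4 or more plates were examined for a plate far from the others, and 7 of 30 groups held one. Chance gives about 1 in 20, a rate that does not hold for sums near 0: in 4 of the 7 groups every other plate was at 0, so that any read set a plate apart. In luminal GFP+ sums of SMACre mice *Myh11* stood at 38.2 CPM on plate 4, against 0.19 to 0.79 CPM on the other plates. In the intermediate GFP+ sums of SMACre mice *Tpm2* stood at 48.1 CPM on plate 1, which has 4 cells, against 373 to 481 CPM. The other 5 were luminal GFP- sums near 0: *Myh11* at 9.39 CPM on plate 5, *Lmod1* at 6.56 CPM, *Mylk* at 1.09 CPM and *Cnn1* at 0.16 CPM on plate E, and *Actg2* at 0.28 CPM on plate 1.

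The intermediate minus basal log2 difference was higher in K5Cre than in SMACre mice by 7.20 (SE 1.85) for *Myh11* and by 5.94 (SE 1.92) for *Cnn1*. Every K5Cre plate lay above 0 and every SMACre plate below 0 for both genes, the unadjusted edgeR p was 0.0046 and 0.015, and the edgeR adjusted p was 0.994. Cre line and batch cannot be told apart here.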

How the results depend on the processing

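The share of genes called depended on the tool and on the filter on low counts. DESeq2 called 0.486% of genes for intermediate against basal, 11.3% for luminal against basal, 6.67% for luminal against intermediate, 2.14% for luminal GFP+ against GFP- and 1.38% for basal GFP+ against GFP-, where edgeR called 0, 0.562%, 0, 0 and 0. Without the filter edgeR's shares were 0.0752%, 3.08%, 1.01%, 0.281% and 0.00449%, and *Acta2* and *Myl9* were called lower in the intermediate gate. Without the plate as a block, luminal against basal gave 1.07% and luminal against intermediate 0.217%. Of the members, *Acta2*, *Cnn1* and *Myl9* then lost their luminal against basal call and *Tpm2* gained one, while in the basal GFP+ against GFP- comparison *Tagln* (0.94) and *Tpm2* (0.20) changed sign. With a *Dcpp1* limit of 100 reads these shares were 2.01% and 0.375%, and 0.00875% for luminal GFP+ against GFP-, and without the *Epcam* and *Dcpp1* filters they were 1.42%, 0.165% and 0.00870%. Thinned cells gave 2.69% and 0.666%, Cre line by chase time as units gave 1.13% for luminal against basal, and at least 5 cells per sum gave 0.0628% for luminal against intermediate. Leaving out 1 plate gave 0.0407% to 0.361% for luminal against basal and 0 to 0.0628% for luminal against intermediate. In batch 3 alone the shares were 0.0168% for intermediate against basal, 0 for luminal against basal and 0.0941% for luminal against intermediate, and batches 1 and 2 alone gave 0.00854% for the last. The fits of single batches for the luminal comparisons were chosen after seeing the data.

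In batch 3 alone the intermediate against basal difference changed sign for *Actg2* (0.27), *Myh11* (2.79), *Cnn1* (1.94), *Tagln* (0.063), *Oxtr* (1.15), *Lmod1* (0.44) and *Tpm2* (0.066), and the luminal GFP+ against GFP- difference for *Acta2* (-3.56) and *Oxtr* (-2.16). The fitted difference of *Oxtr* also changed sign without plate 1 (0.62), ranging from -1.04 to 0.62 when 1 plate was left out, and its mean within-plate difference ranged from -2.25 to 0.65. The same range was -4.31 to -2.06 for *Myl9*, -3.10 to -0.39 for *Cnn1*, -3.09 to -0.21 for *Myh11* and -3.07 to -1.14 for *Lmod1*. Without thinning, mean detection was 45.3% in intermediate and 19.5% in luminal GFP+ cells. The causes were not tested, apart from the smaller number of plates in a single batch. Depth limits detection in single cells, and groups of 3 to 6 cells limit the K5Cre basal comparison and plate 1.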

Other observations

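Luminal cells of plate 5 had been sequenced in a repeat run that no comparison above uses. Its 67 kept luminal GFP+ cells held 15.2 CPM of *Acta2*, 21.3 CPM of *Oxtr* and 5.61 CPM of *Tpm2*, against 4.42, 16.2 and 2.16 CPM in the first run. Its 12 luminal GFP- cells held 1.00 CPM of *Acta2*, 18.1 CPM of *Oxtr* and 4.52 CPM of *Tpm2*. *Myh11*, *Cnn1* and *Myl9* stood at 3.81, 6.85 and 6.62 CPM in the GFP+ cells, and none of the 3 exceeded 0.79 CPM in the first run.

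Among intermediate GFP+ cells in which *Acta2* was detected, *Tpm2* was also detected in 97.7%, *Mylk* in 64.4%, *Oxtr* in 50.8% and *Myl9* in 40.2%. Among the 92 basal GFP+ cells with *Acta2* these shares were 93.5%, 89.1%, 81.5% and 82.6%. Of the other members, *Myh11* was detected beside *Acta2* in 38.6% of intermediate and 75% of basal cells, and *Cnn1* in 43.2% and 68.5%. Of the basal cells with *Acta2*, 85 were SMACre and 7 were K5Cre. In SMACre cells these shares were 36.2% and 80% for *Myh11* and 39.1% and 71.8% for *Cnn1*. In K5Cre cells the direction was reversed, with 41.3% and 14.3% for *Myh11* and 47.6% and 28.6% for *Cnn1*. *Mylk*, *Oxtr* and *Myl9* had lower shares in the intermediate cells of both lines.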
